A study of Mus musculus with 2 samples.

Results

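*Eppk1* encodes epiplakin, a member of the plakin family, and was followed here as 1 of the 19059 genes counted in mouse skin, chosen by name and not by its values. It was read in keratinocytes, cell by cell, from cells with little of the suprabasal keratins *Krt1* and *Krt10* to cells that carried the granular layer transcripts *Flg* and *Lor*. Single cells were prepared from punch biopsies of dorsal skin of 1 wildtype C57BL/6J mouse and of 1 *Eppk1*-/- mouse from a line crossed back into that strain. No treatment of either mouse is described, and the age and sex of the animals are not given in the sources used here. Each genotype is 1 library of the 10x Genomics Flex assay, in which pairs of probes are hybridized to the RNA of fixed cells and ligated pairs are counted by unique molecular identifiers (UMIs). The wildtype library held 9179 cells and 77638793 UMIs (median 5078 per cell) and the *Eppk1*-/- library 8811 cells and 65118304 UMIs (median 5093).

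Plakins are large proteins that tie intermediate filaments to each other and to cell junctions. Epiplakin is built from a row of plakin repeats and lacks the other modules of its relatives, and it binds keratin filaments in simple and stratified epithelia. In the epidermis, basal cells with the keratins *Krt5* and *Krt14* leave the basement membrane and become spinous cells with *Krt1* and *Krt10*, then granular cells with filaggrin (*Flg*) and loricrin (*Lor*), and at last cornified cells.

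In GENCODE M21 on GRCm38 the gene lies on the minus strand of chromosome 15, from 76101481 to 76120195, in 2 exons. Exon 1 (76119109 to 76120195) is wholly 5′ UTR, and exon 2 (76101481 to 76112725) holds all 10374 bases of coding sequence (76102306 to 76112679). The coding sequence repeats itself in part, and whether probes of the assay lie in the repeats was not checked. Of the 12283 windows of 50 bases in the transcript, 3088 (25.1%) occurred more than once, all of them between transcript bases 3252 and 11354, whereas no window recurred within the transcripts of *Dsp*, *Ppl*, *Evpl*, *Dst* or *Macf1* and 30 (0.195%) did within that of *Plec*. Of the different windows, 268 stand 3 times in the transcript. The first of them is shown as an example with the 20 bases before it. Capitals mark the 50 bases of the window, which are the same in the 3 copies.
First copy, chr15:76110512-76110581, minus strand: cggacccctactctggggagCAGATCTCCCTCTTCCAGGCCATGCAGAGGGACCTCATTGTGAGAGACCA
Second copy, chr15:76105655-76105724, minus strand: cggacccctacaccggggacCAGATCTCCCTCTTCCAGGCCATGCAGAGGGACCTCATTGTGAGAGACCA
Last copy, chr15:76104110-76104179, minus strand: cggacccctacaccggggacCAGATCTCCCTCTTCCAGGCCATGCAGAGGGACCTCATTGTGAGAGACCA
The deposited count is 1 number per gene and cell, so that it does not tell which probes, and which stretch of the transcript, a UMI came from. Which stretch was removed in the *Eppk1*-/- mouse is not given in the sources used here, and the counts below are therefore those of *Eppk1* RNA, whole or in part, and not of epiplakin protein. The gene *BC024139* overlaps exon 1 on the same strand and was counted in keratinocytes at 1.97 CPM (UMIs of the gene per 1000000 UMIs) without and 2.26 CPM with the knockout.

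Keratinocytes were cells in which *Dsp*, *Perp*, *Sfn*, *Krt5*, *Krt14*, *Krt15* and *Krt10* together made up at least 1% of UMIs and *Col1a1*, *Col1a2*, *Col3a1* and *Dcn* under 0.5%, within the limits of 200 to 45000 UMIs. By this rule 5493 wildtype and 4045 *Eppk1*-/- cells were keratinocytes, or 61.9% and 46.9% of the cells kept. In these cells the 6 fibroblast markers checked summed to 177 (wildtype) and 215 CPM (*Eppk1*-/-), the 8 sebocyte markers to 1395 and 2061 CPM, the 6 dendritic and Langerhans cell markers to 1273 and 1456 CPM, the 7 macrophage and monocyte markers to 226 and 218 CPM, and the 4 melanocyte markers to 17.3 and 0.658 CPM. Markers of T and NK, endothelial and mast cells summed to 8.96 to 58.6 CPM. All these markers were above 0 in the wildtype and all but 1 melanocyte marker in the *Eppk1*-/- library, and the part of other cell types in the differences given here was not tested. The sebocyte marker *Elovl4* was also among the 20 genes most correlated with *Eppk1*, given below. It was at 1392 CPM in wildtype keratinocytes with 3 to 10% of *Krt1* and *Krt10*, so that the sebocyte sum is not of sebocytes alone. The libraries shared 1211 droplet barcodes, which were held by 700 wildtype and 546 *Eppk1*-/- keratinocytes. With 1 mouse per genotype no difference between genotypes could be tested. All intervals are exact 95% intervals that cover counting error only, and ratios are log2 of *Eppk1*-/- over wildtype CPM.

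*Eppk1* was an abundant transcript of wildtype keratinocytes and was lower, but still present, in *Eppk1*-/- keratinocytes. The wildtype cells held 109882 *Eppk1* UMIs, or 3051 CPM (interval 3033 to 3069), and the *Eppk1*-/- cells held 18848, or 775 CPM (764 to 786). The log2 ratio was -1.98 (-2.00 to -1.96). A ratio of -0.5 or below was reached by 5.53% of the 11945 genes with at least 50 UMIs in keratinocytes, of 0.5 or above by 2.79%, and 39 of those genes had a lower ratio than *Eppk1*. When every cell was thinned to 2000 UMIs, an *Eppk1* UMI was found in 76.4% of 4941 wildtype (75.2 to 77.6) and 20.6% of 3561 *Eppk1*-/- keratinocytes (19.3 to 22.0), against 84.3% and 31.0% without thinning. Fibroblasts, which should lack the gene, showed 9.86% and 3.37% after thinning and 71.5 and 17.5 CPM, with medians of 6446 and 6172 UMIs per cell against 4551 and 4574 in keratinocytes.

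In wildtype keratinocytes *Eppk1* was higher at each step of *Krt1* and *Krt10*. Cells with under 0.1% of their UMIs in these keratins held 1054 CPM (n = 3349 cells), those with 0.1 to 0.3% held 1375 CPM (n = 546), those with 0.3 to 1% held 2023 CPM (n = 460), those with 1 to 3% held 3979 CPM (n = 737) and those with 3 to 10% held 7828 CPM (n = 401). The highest of these groups stood 7.43-fold above the lowest, a log2 difference of 2.89 (2.87 to 2.92). The cells with 3 to 10% were 7.30% of wildtype keratinocytes and held 47.8% of their *Eppk1* UMIs. The difference was present in single cells as well as in the sums, since the median cell held 706 CPM in the lowest and 4872 CPM in the highest group, and after thinning 70.0% and 94.7% of cells had an *Eppk1* UMI.

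The *Eppk1*-/- library followed the same order from a lower start and with a steeper gradient. The same 5 groups held 75.6, 236, 506, 1001 and 2275 CPM (n = 2300, 387, 294, 645 and 418 cells), a 30.1-fold and a log2 difference of 4.91 (4.81 to 5.02). The log2 ratio between the libraries was -3.80 in cells with under 0.1% and -1.78 (-1.81 to -1.75) in cells with 3 to 10% of *Krt1* and *Krt10*. In the latter the median cell held 477 CPM and 57.5% of thinned cells had an *Eppk1* UMI, against 10.8% in the former. These cells were 10.3% of *Eppk1*-/- keratinocytes and held 60.4% of their *Eppk1* UMIs. Wildtype cells with 3 to 10% of *Krt1* and *Krt10* had a median of 12389 UMIs and *Eppk1*-/- cells one of 7184, and the part of this gap in the ratio was not tested here. The lowest *Eppk1*-/- group lay above the 17.5 CPM of fibroblasts from the same library. An endothelial-like cluster of that library was at 114 CPM (75.9 to 165, n = 60 cells). The part of background in the level of the lowest group was not tested.

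The granular transcripts gave another order. Wildtype cells without a *Flg* or *Lor* UMI held 2207 CPM of *Eppk1* and cells with up to 0.1% held 3312 CPM. The level was highest, at 8067 CPM, in cells with 0.1 to 0.3% of *Flg* and *Lor* and was 5698, 6158 and 4797 CPM in cells with 0.3 to 1%, 1 to 3% and 3% or more. The peak at 0.1 to 0.3% rested on the deeper cells of a mixed group, whose median cell had 1919 (wildtype) and 1336 UMIs (*Eppk1*-/-) and held 798 and 0 CPM. By the median cell the wildtype was highest with 1 to 3% (5863 CPM). By either measure wildtype *Eppk1* was lower in the cells richest in *Flg* and *Lor* (median cell 3009 CPM) than in one of the groups before them. In the *Eppk1*-/- library the corresponding levels were 289.6, 833, 4957, 5599.5, 4083 and 3673 CPM. The libraries differed most without *Flg* and *Lor* (log2 ratio -2.93, -2.98 to -2.88). In cells with 0.3 to 1% the ratio was -0.02 (-0.12 to 0.07), although only 36 wildtype and 18 *Eppk1*-/- cells stood behind it. In cells with 3% or more it was -0.39 (-0.45 to -0.32, n = 70 and 37 cells). The median cells gave another picture in both groups. At 0.3 to 1% the median *Eppk1*-/- cell was lower, with 2564 CPM against 3755 CPM in the wildtype. At 3% or more it was higher, with 3559 against 3009 CPM, and 54.1% of the *Eppk1*-/- cells were at or above the wildtype median.

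**Figure D1:**
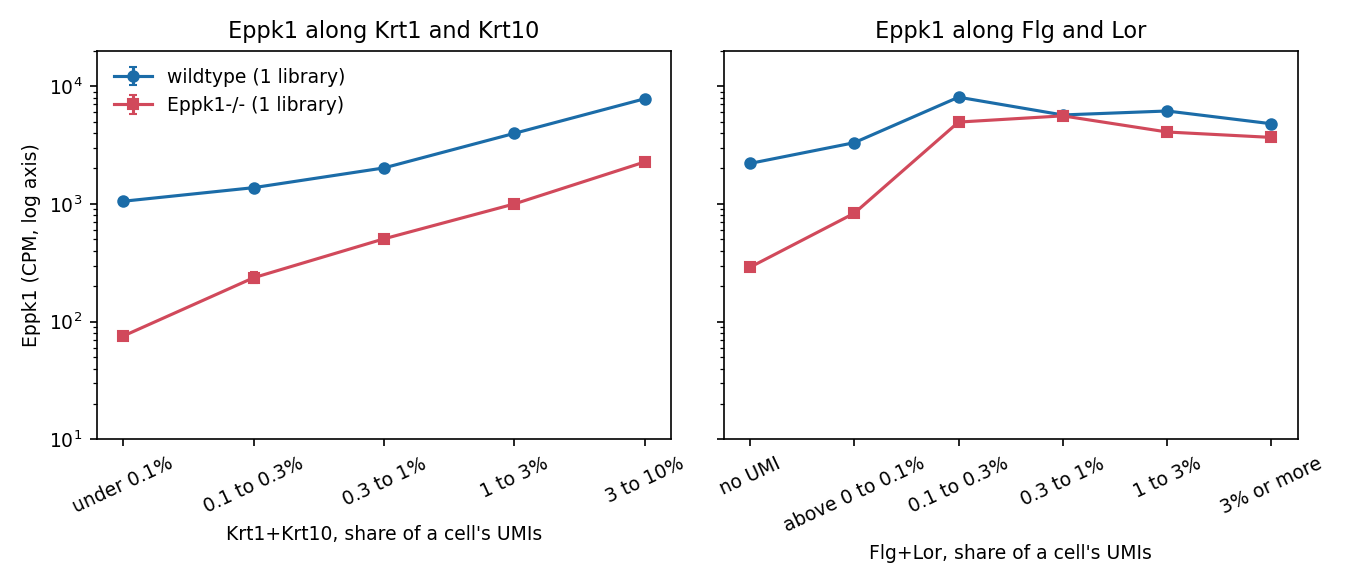
*Eppk1* level (CPM, log axis) in wildtype (blue circles) and *Eppk1*-/- (red squares) keratinocytes with 200 to 45000 UMIs, by the share of a cell's UMIs in *Krt1* and *Krt10* (left) or in *Flg* and *Lor* (right). Points are UMIs summed over the cells of 1 library and bars are exact 95% counting intervals, mostly smaller than the points. On the left both libraries are higher at every step and the *Eppk1*-/- library stays lower, and on the right the lines meet near 5698 and 5599.5 CPM at 0.3 to 1%.

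Both axes were then combined into 5 stages, which were chosen after these levels had been seen and which leave out a few cells rich in *Flg* and *Lor* but poor in *Krt1* and *Krt10*. In the first stage, with under 0.1% on both axes, *Krt5* stood at 7403 (wildtype) and 8348 CPM (*Eppk1*-/-), and in the last, with at least 1% of *Krt1* and *Krt10* and at least 0.1% of *Flg* and *Lor*, it stood at 119.9 and 171 CPM. The stages are not pure cell types and not a single order. In the first, the follicle keratins *Krt17* and *Krt79* stood at 2108 and 758 CPM in wildtype cells (1812 and 702 CPM in *Eppk1*-/- cells) and the sebaceous *Scd1* at 441 and 839 CPM. In the second, which sets no limit on *Flg* and *Lor*, *Flg* was 2239 (wildtype) and 7093 CPM (*Eppk1*-/-) and *Lor* 4135 and 4150 CPM, above the up to 100.4 CPM that the fourth stage held of either. In the first stage *Eppk1* was 1054 CPM (wildtype, n = 3291 cells) and 75.2 CPM (*Eppk1*-/-, n = 2276), a log2 ratio of -3.81 (-3.91 to -3.71). With 0.1 to 1% of *Krt1* and *Krt10* it was 1755 and 399.9 CPM (ratio -2.13). With at least 1% but no *Flg* or *Lor* it was 4690 and 638 CPM (ratio -2.88), in 542 and 607 cells. With at least 1% and up to 0.1% of *Flg* and *Lor* it was 6043 and 1711 CPM (ratio -1.82).

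In the last stage *Eppk1* reached 7135 CPM in 119 wildtype cells and 5443 CPM in 56 *Eppk1*-/- cells with 200 to 45000 UMIs, a log2 ratio of -0.39 (-0.43 to -0.35). *Lce1b*, a late cornified envelope gene, was at 420 CPM in these wildtype and 29.5 CPM in these *Eppk1*-/- cells, and 1 wildtype cell held 40.8% of its UMIs. Without 2 wildtype cells of a cluster led by *Lce* genes, *Lce1b* was at 112 CPM and *Eppk1* at 7227 CPM in the wildtype, and when that cluster and the sebocyte and immune ones were left out the ratio was -0.40. The ratio depended on the upper limit on UMIs. In the 169 wildtype and 112 *Eppk1*-/- cells of the same kind with more than 45000 UMIs the levels were 6799 and 3221 CPM and the ratio was -1.08 (-1.10 to -1.06), and with both kinds of cells together it was -0.98. Below the limit the median wildtype cell held 5717 CPM and the median *Eppk1*-/- cell 4638 CPM, and the cells from the tenth to the ninetieth percentile ranged from 1629 to 12550 CPM and from 712 to 9387 CPM, so that the cells of both libraries overlapped over most of their range. Of the 56 *Eppk1*-/- cells, 37.5% were at or above the wildtype median, against 2.20% of the cells in the first stage. After thinning, 99.1% of wildtype and 94.2% of *Eppk1*-/- cells had an *Eppk1* UMI. The *Eppk1*-/- cells of this stage were 1.39% of keratinocytes and held 32.4% of the library's keratinocyte *Eppk1* UMIs, against 2.19% and 16.8% in the wildtype. Above 45000 UMIs the overlap was smaller. There the same percentiles ranged from 3179 to 12803 CPM (wildtype) and from 1483 to 5443 CPM (*Eppk1*-/-). Of the 112 *Eppk1*-/- cells, 10.7% were at or above the wildtype median.

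The log2 ratio of *Eppk1* lay far from 0 in the first stage and near it in the last. A log2 ratio of -0.5 or below was found for 6.87% of the 11244 genes with 50 UMIs or more in the first stage and for 11.4% of 6283 genes in the last, where 4.09% were at 0.5 or above. *Eppk1* was far beyond that size in the first stage, where 12 genes had a lower ratio, and short of it in the last, where 1052 did. The ratio in the last stage minus that in the first was 3.42 for *Eppk1*, the highest signed difference of 6210 genes, whose median was -0.04. A difference of 0.5 or more was reached by 6.83% and one of 2 or more by 0.0966% of these genes, and the next were *Postn* at 3.25 and *Sprr4* at 2.91, which rested on 91 and 53 UMIs in the last stage against 24481 for *Eppk1*. Unlike that of *Eppk1*, the ratios of both ended further from 0 than they began, at 3.005 and 2.14 from -0.25 and -0.77. *Arg1*, *Slc10a6* and *Srms*, with differences of 2.58, 2.41 and 2.01, ended nearer 0 than they began, as *Eppk1* did. Their ratios were -2.17, -1.84 and -1.68 in the first stage and 0.41, 0.57 and 0.33 in the last, where they rested on 715, 87 and 57 UMIs. Without the upper limit on UMIs the last-stage ratio of *Eppk1* was -0.98, and 121 of 9142 genes had a lower one. The difference between the stages was then 2.83 and again the highest of those genes. Since the stages were chosen after the levels of *Eppk1* were seen, this rank is a description. *Eppk1* is also the gene knocked out, and its first-stage ratio of -3.81 left more room for such a difference than most genes had. The median first-stage ratio of the 11244 genes was -0.04. The genes that set the stages were themselves unequal in the last stage, with log2 ratios of -0.75 for *Krt1*, 0.13 for *Krt10*, 0.85 for *Flg* and -0.33 for *Lor*, and their part in the ratio of *Eppk1* was not tested.

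The pattern was as large without the droplets that held cells of both libraries. Among *Eppk1*-/- cells of the last stage, *Eppk1* was 4784 CPM in shared droplets and 5598 CPM in others, and in the first stage it was 65.9 and 76.5 CPM. The stages between went the other way. With 0.1 to 1% of *Krt1* and *Krt10* the level was 729 CPM in shared and 348 CPM in other droplets. With at least 1% it was 735 and 621 CPM without *Flg* or *Lor*, and 2121 and 1643 CPM with up to 0.1% of these. Over all *Eppk1*-/- keratinocytes it was 982 and 741 CPM, and the ratio was -1.52 in shared and -2.06 in other droplets. The part of shared droplets in these levels was not tested. Without shared droplets the ratio was -2.37 with 0.1 to 1% of *Krt1* and *Krt10*, -0.36 in the last stage and -3.80 in the first.

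*Eppk1* also moved with the number of UMIs per cell, cells above 45000 UMIs included. In the wildtype it was 959, 1193, 1853, 3062, 6434 and 6950 CPM in cells with under 2000, 2000 to 5000, 5000 to 10000, 10000 to 20000, 20000 to 45000 and more than 45000 UMIs. In the *Eppk1*-/- library it was 134, 112, 217, 799, 2764 and 3195 CPM. The deepest cells stood 5.83-fold above those of 2000 to 5000 UMIs in the wildtype and 28.4-fold in the *Eppk1*-/- library. The 173 *Eppk1*-/- keratinocytes above 45000 UMIs (of 4218 in all) held 66.3% of the library's keratinocyte *Eppk1* UMIs, and the 252 such wildtype cells (of 5745) held 50.5%.

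Within a stage the relation to depth was not the same everywhere. In the first stage *Eppk1* changed little with depth, with 873 to 1163 CPM in wildtype and 71.2 to 95.2 CPM in *Eppk1*-/- cells across the 5 depths up to 45000 UMIs. In cells with at least 1% of *Krt1* and *Krt10* and no *Flg* or *Lor*, the *Eppk1*-/- level was 246 CPM at 5000 to 10000 UMIs, 747 CPM at 10000 to 20000 and 1639 CPM at 20000 to 45000, while the wildtype level was 3378, 3738 and 7099.6 CPM. In cells with up to 0.1% of *Flg* and *Lor* the *Eppk1*-/- levels were 378, 1093 and 2911 CPM at these depths and the wildtype levels 3266, 4626 and 7398 CPM. In the last stage the *Eppk1*-/- level was already 3922 CPM at 5000 to 10000 UMIs (n = 10 cells) and was 5365 and 5654 CPM at the next depths. At a matched 20000 to 45000 UMIs the log2 ratio was -3.50 in the first stage (n = 25 and 13 cells), -2.11 without *Flg* or *Lor*, -1.35 with up to 0.1% and -0.38 in the last stage (n = 54 and 28 cells), so that the order of the stages held at 1 depth. It did not hold for the stage with 0.1 to 1% of *Krt1* and *Krt10*, whose ratio at this depth was -0.59 in 26 and 14 cells. The part of the unequal *Flg* of that stage in the ratio was not tested. Above 45000 UMIs, where the first stage had no cells, the order of the stages did not hold. The ratio there was -1.12 without *Flg* or *Lor* (n = 11 and 5 cells), -1.26 with up to 0.1% (n = 67 and 54) and -1.08 in the last stage (n = 169 and 112). The *Eppk1*-/- levels of these cells were 4104, 3136 and 3221 CPM.

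**Figure D2:**
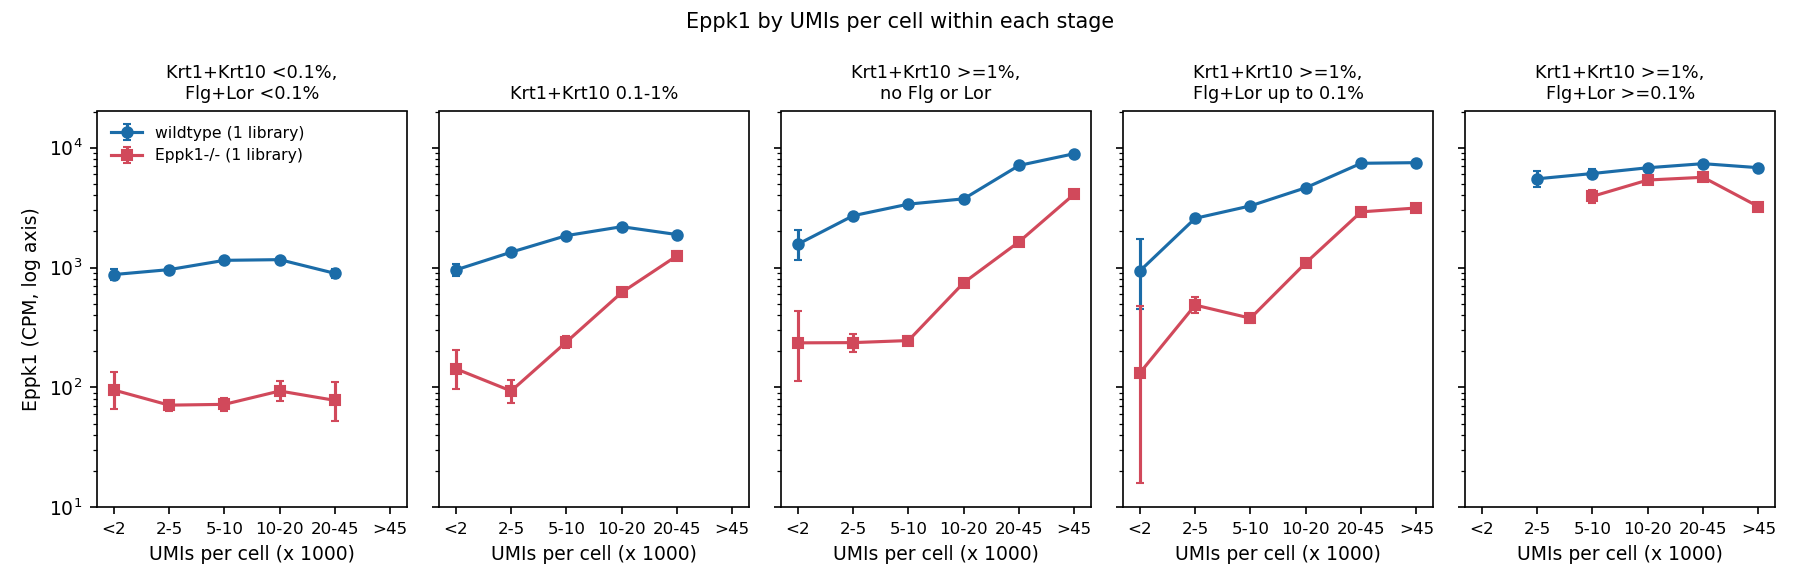
*Eppk1* level (CPM, log axis) by UMIs per cell (in units of 1000) in each of the 5 stages, in wildtype (blue circles) and *Eppk1*-/- (red squares) keratinocytes. Points are sums over at least 5 cells of 1 library and bars are exact 95% counting intervals. The *Eppk1*-/- line is flat in the first panel, climbs from 246 to 1639 CPM between 5000 and 45000 UMIs in the third, and lies near the wildtype line in the last except above 45000 UMIs, where it is at 3221 CPM.

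The other plakins differed along the keratinocyte layers but, in all keratinocytes, by less than 0.5 on the log2 scale between the libraries. In the wildtype, from under 0.1% to 3 to 10% of *Krt1* and *Krt10*, desmoplakin (*Dsp*), which anchors keratin at desmosomes, was higher by 1.41 on the log2 scale, periplakin (*Ppl*) by 1.04 and envoplakin (*Evpl*) by 2.00, the latter pair being precursors of the cornified envelope. The spectraplakin *Macf1* was higher by 0.46. *Plec* (plectin) and *Dst* (which encodes the hemidesmosomal BPAG1e) differed by -2.03 and -3.04 on that scale. *Eppk1*, at 2.89, thus had the largest increase of the 7. In the *Eppk1*-/- library the same differences were 1.31 for *Dsp*, 1.05 for *Ppl*, 1.95 for *Evpl*, 0.52 for *Macf1*, -1.93 for *Plec* and -2.68 for *Dst*, close to the wildtype values, against 4.91 for *Eppk1*.

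None of the 6 other plakins had a log2 ratio beyond 0.5 in either direction in all keratinocytes, where 2.79% of genes were higher and 5.53% lower by that size. *Plec* had ratios of 0.23 to 0.46 and *Dst* of -0.28 to -0.11 in the 5 stages, with counting intervals that reached 0 for both in the last. By *Krt1* and *Krt10* alone, *Plec* was past 0.5 in cells with 0.1 to 0.3%, at 0.56 (0.45 to 0.67). *Dst* was at -0.37 (-0.49 to -0.25) in cells with 0.3 to 1% and at 0.14 (0.01 to 0.27) in those with 3 to 10%. In the 5 stages *Dsp* lay between -0.10 and 0.05, *Ppl* between -0.04 and 0.11, *Evpl* between -0.01 and 0.07 and *Macf1* between -0.08 and 0.23. *Krt5* and *Krt14*, keratins that epiplakin binds, had ratios of 0.17 and 0.09 in all keratinocytes. *Krt8* and *Krt18*, its partners in simple epithelia, were near absent, with 164 and 105 UMIs in all wildtype and 218 and 65 in all *Eppk1*-/- keratinocytes (log2 ratios 0.98 and -0.12).

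**Figure D3:**
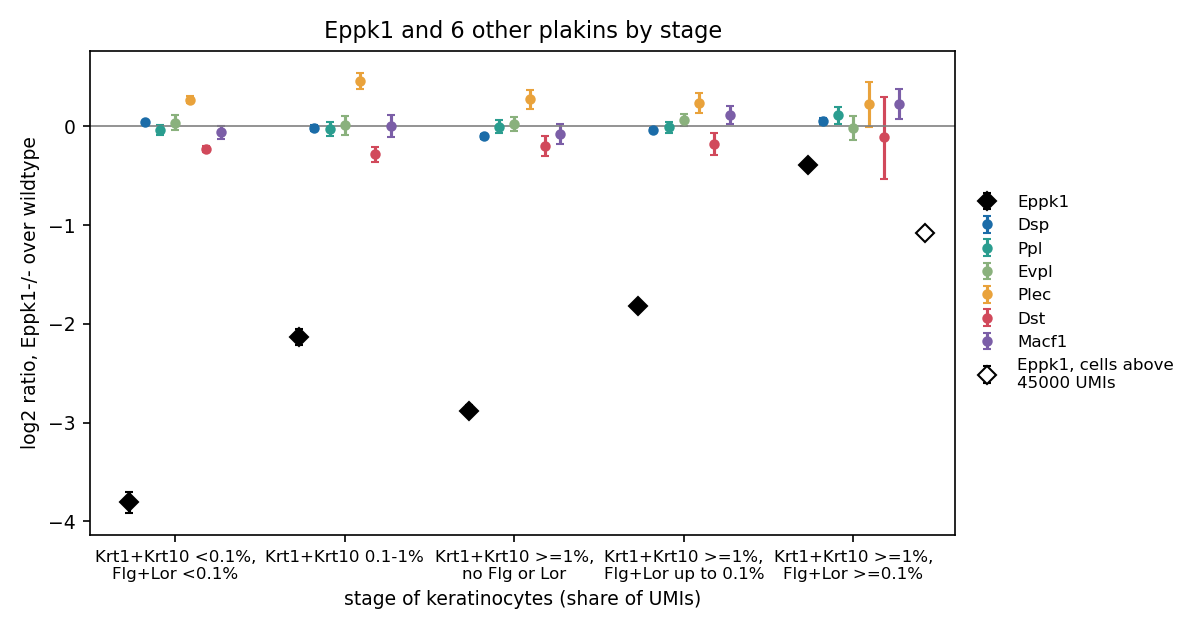
Log2 ratio of *Eppk1*-/- over wildtype CPM for *Eppk1* (black diamonds) and 6 other plakins (coloured circles) in the 5 stages, with exact 95% counting intervals and 1 library per genotype. *Eppk1* goes from -3.81 to -0.39 and is at -1.08 in cells of the last stage above 45000 UMIs (open diamond), while the other plakins stay between -0.28 and 0.46.

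Across wildtype keratinocytes the genes most correlated with *Eppk1* were those of the suprabasal layers. Pearson's r of log(1 + UMIs) was taken over 4941 cells thinned to 2000 UMIs, for 3721 genes detected in at least 10% of them. It is a description, since the cells come from 1 animal and 1 library. *Krt10*, *Dsp*, *Perp*, *Sfn*, *Krt5*, *Krt14* and *Krt15* also make up the rule that chose the cells, and its part in their r was not tested. An r of 0.3 or more was found for 33 genes (0.887%), and the median over all genes was -0.01. The highest values belonged to the keratin *Krt77* (0.51), the differentiation peptide *Krtdap* (0.49), *Krt10* (0.48), the calmodulin-like *Calm4* (0.47), *Ly6g6c* (0.43), dermokine (*Dmkn*, 0.43) and the desmosomal cadherin *Dsg1a* (0.43). *Fam25c*, the protease inhibitor *Spink5*, *Dsp*, *Dnase1l3*, suprabasin (*Sbsn*), the fatty acid elongase *Elovl4*, *Krt80*, the filaggrin-processing protease *Asprv1*, the envelope precursor *Sprr1a*, *Gltp*, *Pla2g2f*, the lipid transporter *Abca12* and involucrin (*Ivl*) followed at 0.40 to 0.36. *Dsp* thus had the highest r of the other plakins in these cells, with *Evpl* at 0.27, *Ppl* at 0.20, *Macf1* at 0.06, *Plec* at -0.11 and *Dst* at -0.25. After thinning, *Dsp* was detected in 99.3% of the cells, *Ppl* in 67.2% and *Evpl* in 43.6%, and the part of detection in their r was not tested. The lowest values were those of *Apoe* (-0.37), *Krt15* (-0.35), the hemidesmosomal collagen *Col17a1* (-0.33), *Txnip* and *Krt5* (both -0.27), *Jun* (-0.26), *Dst* (-0.25), *Ier3* (-0.24), *Tgfbi* (-0.23) and *Krt14* (-0.23).

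Gene lists of the layers were ordered in the same way. Of 32 genes of the granular and cornified layers 15 were frequent enough to be measured, and 15 of these had an r above 0, from *Cst6* at 0.10 to *Krtdap* at 0.49 (median 0.37), against 39.8% of all genes. Of 10 spinous genes 9 were measured and 9 had an r above 0 (median 0.39, lowest *Mt4* at 0.21). The 13 basal genes, all measured, had an r below 0, from *Cdh3* at -0.11 to *Krt15* at -0.35 (median -0.17). Among 11 measured desmosome genes 9 were above 0 (median 0.25), with *Dsg3*, a cadherin of the lower layers, at -0.12. These lists overlapped and are not independent of each other. *Krtdap*, *Sbsn* and *Dmkn* were counted as both granular and spinous genes, and members such as *Dsg1a* as both spinous and desmosome genes. The wound keratins *Krt16*, *Krt17* and *Krt6a* stood at 0.14, 0.01 and -0.10. Between the libraries, 5 of the 31 granular and cornified genes with 50 UMIs or more were lower by a log2 ratio of 0.5 or beyond (*Lce1a1* at -1.59, *Lce1b* at -0.89, *Tgm3* at -0.85, *Sprr4* at -0.71 and *Lor* at -0.59) and 2 were higher (*Rptn* at 0.93 and *Flg* at 0.78), where 5.53% of all genes were lower and 2.79% higher. The last stage held 1083 of the 1193 wildtype *Lce1b* UMIs, and 285 without its cells of the cluster led by *Lce* genes. By stage the *Lce1b* ratio was 4.25 with 0.1 to 1% of *Krt1* and *Krt10* (29 wildtype and 370 *Eppk1*-/- UMIs) and -3.81 in the last. *Krt6a* was also lower by a log2 ratio of 0.5 or beyond, at -0.72, as 1 of 3 wound keratins. None of the 10 spinous, 13 basal and 13 desmosome genes passed it in either direction, counts that at the shares over all genes cannot be told from the background. *Flg*, which 9.61% of these cells held and which therefore missed the minimum, had an r of 0.14, and *Lor* one of 0.14.

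The correlations were lowest in the earliest and highest in the latest cells, with no steady order between. *Eppk1* was at 1054 CPM in the earliest and 7828 CPM in the latest of these wildtype cells. *Krtdap* was at 299 and 8781 CPM and *Ivl* at 85.8 and 1539 CPM. Fewer UMIs of these genes were thus left per thinned cell in the earliest cells, which bears on their r, and the extent was not tested. Within cells with under 0.1% of *Krt1* and *Krt10* (n = 3054) the median r of the 20 highest genes was 0.06 and the highest r of any gene was 0.19, that of the desmosomal plaque gene *Pkp1*. The median was 0.20 in cells with 0.1 to 0.3%, 0.14 with 0.3 to 1%, where *Krt77* was at 0.05 after 0.24, and 0.27 with 1 to 3%. Within cells with 3 to 10% (n = 393) it was 0.40, led by *Sbsn* (0.53), *Krt77* (0.52) and *Dmkn* (0.52). *Krt1* and *Krt10* parted there. *Krt10* kept an r of 0.36, whereas *Krt1*, at 0.32 over all cells, had an r of -0.46 with *Eppk1*, next to -0.47 for *Apoe* and -0.46 for *Krt15*. Their sum defines this group of cells, which bears on the sign of both values, and the extent was not tested.

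In *Eppk1*-/- keratinocytes (n = 3561) the remaining *Eppk1* UMIs kept much of this company. Of the 20 highest genes in the wildtype, 14 were among the 20 highest in the *Eppk1*-/- library, and their r there ranged from 0.29 (*Abca12*) to 0.52 (*Asprv1*). *Spink5* and *Dnase1l3* stood at 0.51 and *Ivl* at 0.49. *Flg* and *Lor* stood at 0.38 and 0.36, against 0.14 and 0.14 in the wildtype. *Txnip*, at -0.27 in the wildtype, was at -0.09. The 20 genes themselves had log2 ratios between the libraries from -0.40 (*Dnase1l3*) to 0.46 (*Elovl4*) and a median of -0.15, and 0 of them passed 0.5 in either direction, against 2.79% higher and 5.53% lower over all genes, a background at which few of 20 would be past it.

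**Figure D4:**
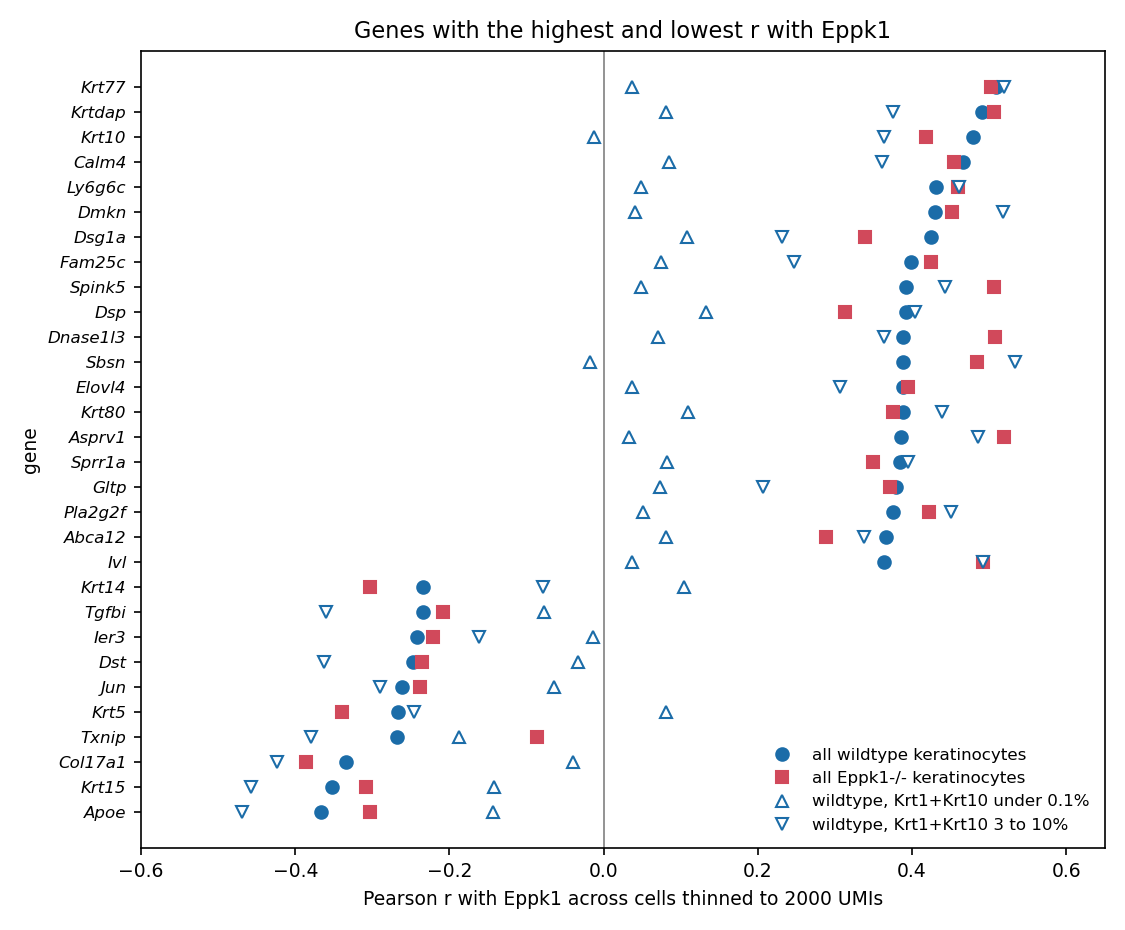
Pearson's r with *Eppk1* across cells thinned to 2000 UMIs for the 20 genes of highest and the 10 of lowest r in wildtype keratinocytes. Filled circles are all wildtype and filled squares all *Eppk1*-/- keratinocytes, open triangles wildtype cells with under 0.1% (pointing up) or 3 to 10% (pointing down) of *Krt1* and *Krt10*. Circles and squares lie on the same side of 0 for each gene, and the upward triangles of the 20 highest genes lie at 0.13 or below.

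Clusters of all skin cells, formed without *Eppk1* and the other plakins, put the gene in the epithelium. The highest wildtype level was that of the granular keratinocyte-like cluster, at 6864 CPM, followed by the spinous keratinocyte-like (2630 CPM) and upper follicle-like clusters (1962 CPM). A cluster led by the cell cycle genes *Mki67* and *Top2a* and left unnamed (1179.6 CPM), the basal keratinocyte-like cluster (1176 CPM) and a small cluster led by *Krt75* (1124 CPM, n = 62 cells) had overlapping counting intervals and no order among them. An unnamed cluster led by *Fst* and *Sostdc1* held 856 CPM, the clusters of bulge and outer sheath-like cells 741 and 636 CPM and the sebocyte-like cluster 707 CPM. Endothelial-like cells held 451 CPM, with a median of 1039 UMIs per cell, and a T and NK-like cluster 262 CPM. The fibroblast-like and macrophage and monocyte-like clusters, cell types that should lack the gene, lay between 37.1 and 132.6 CPM, and an unnamed cluster led by the immunoglobulin genes *Igkc* and *Ighm* at 133.5 CPM.

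The *Eppk1*-/- library was lower in each named epithelial cluster, and by unequal amounts. The log2 ratio was -4.44 in sebocyte-like, -4.19 in basal, -3.69 in spinous, -3.15 in upper follicle-like and -1.16 (-1.19 to -1.14) in granular keratinocyte-like cells, where 3065 CPM remained (n = 251 cells). Both bulge and outer sheath-like clusters were at -2.97 and -3.09. One cluster went against the rest. The unnamed cluster led by late cornified envelope genes (*Lce1a2*, *Lce1b*, *Lce1c*) held 100.4 CPM in 51 wildtype and 551 CPM in 37 *Eppk1*-/- cells. From granular to *Lce*-led cells the level thus dropped in both libraries, to a lower level in the wildtype. That wildtype level lay within the 37.1 to 132.6 CPM of the wildtype fibroblast-like and macrophage and monocyte-like clusters. The *Eppk1*-/- level lay above the 16.7 to 23.5 CPM of these clusters in its own library. A cluster with 56 *Eppk1*-/- cells and 1 wildtype cell, led by *Cyp2g1* and *Btc*, held 1498 CPM and gave no comparison.

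**Figure D5:**
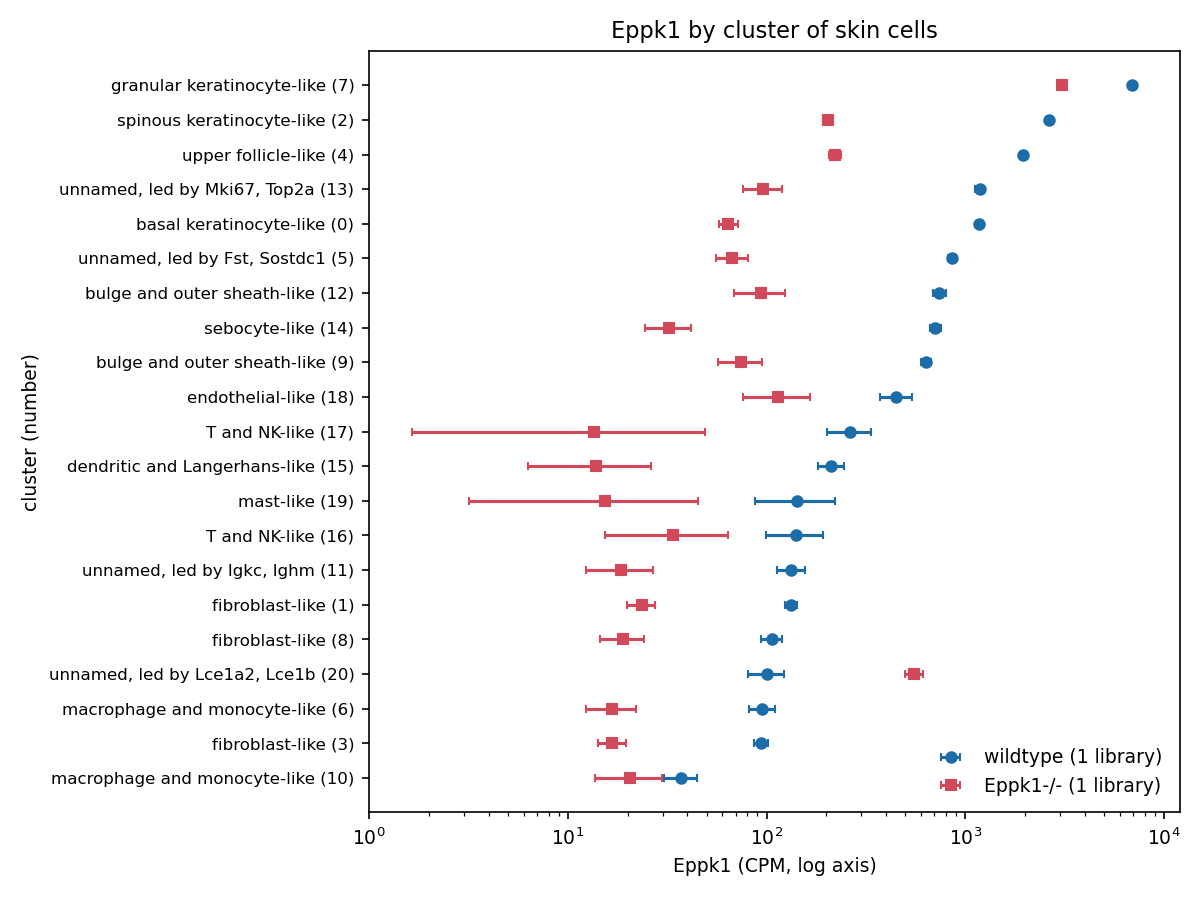
*Eppk1* level (CPM, log axis) by cluster in wildtype (blue circles) and *Eppk1*-/- (red squares) skin, for clusters with at least 20 cells in both libraries, ordered by the wildtype level. Bars are exact 95% counting intervals. The granular keratinocyte-like cluster is highest in both libraries (6864 and 3065 CPM), and the unnamed cluster led by *Lce* genes is the one in which the red square lies to the right of the blue circle.

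Over the 22 clusters with at least 50 wildtype cells, the genes whose log2(CPM + 1) followed that of *Eppk1* most closely, among 9041 genes at 50 CPM or more in a cluster, were *Fam83b* (r = 0.96), the epithelial transcription factor *Grhl1* (0.96), the adhesion gene *Mpzl2* (0.96), the anchoring filament gene *Lad1* (0.96) and *Rapgefl1* (0.95). *Perp* (0.95), *Erbb3* (0.94), *Dsp* (0.94), *Lgals7* (0.94) and *Serpinb5* (0.93) came next. The values describe the split of epithelial from other cells in 1 library, and *Dsp* was the 1 gene that stood both on this list and among the 20 most correlated across keratinocytes.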

How the data were processed

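Dorsal skin cells of 1 wildtype and 1 *Eppk1*-/- mouse were measured with the 10x Flex probe assay. The authors deposited filtered tables of UMI counts per gene and cell, written by Cell Ranger 8.0.1 per the file headers, on mm10 (GRCm38) per the submitters' processing notes, without normalization. Genotypes were taken from the sample labels. A cell was kept if its UMIs numbered 200 to 45000, its genes 100 to 7500 and its mitochondrial share was no more than 10% (8875 wildtype and 8617 *Eppk1*-/- cells). Dropping 13 mitochondrial genes left 19046 for all further steps. UMIs were summed per library and group of cells and given as CPM. Ratios had 0.5 UMI added to each sum. Intervals were exact, for counting error only, and with 1 library per genotype no test was run. A UMI is 1 ligated probe pair, so a count depends on the probes of a gene as well as on its RNA, and the free RNA of a pooled run may add to low counts.

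For shares of cells and correlations, cells were thinned to 2000 UMIs and shallower cells were left out (552 wildtype and 484 *Eppk1*-/- keratinocytes). Clusters came from Seurat 5.3.0 in R 4.3.3 (2000 variable features without the plakins, 50 principal components, RPCA integration, resolution 0.5). A name needed at least 3 markers of a cell type, with no other type ahead in markers or in leading genes and no tie in both. It also needed under 95% of the cells from 1 library and, as added after the clusters were seen, leading genes that were not mostly immunoglobulin genes. Doublets were not removed in the values given. Scrublet called 2 and 217 cells, too few of the wildtype to use, and leaving out the 5% with the highest scores was an alternative. Scripts used Python 3.11.15, numpy 2.4.6, pandas 2.3.3, scipy 1.17.1, scanpy 1.11.5 and matplotlib 3.10.9, and were tested on simulated data. Named were *Eppk1*, the other plakins, the genes of the cell rules and the 20 highest and 10 lowest genes by r. So were the 10 most alike over clusters and the ends of each list. Further genes were named after their values were seen. They were *Postn*, *Sprr4*, *Arg1*, *Slc10a6*, *Srms*, *BC024139*, *Pkp1*, the wound keratins, *Krt17*, *Krt79*, *Scd1*, members of lists past 0.5 and leading genes of clusters. Members and lists were chosen with earlier results of these data known. Gene models and repeat sequences were read from GENCODE M21 on GRCm38. The 4 Y-linked genes checked had 0 UMIs in both libraries.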

Additional observations from a re-analysis of the deposited data

Results flagged for a closer look

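One cluster differed in direction from the other epithelial clusters. In the unnamed cluster led by *Lce1a2*, *Lce1b* and *Lce1c*, *Eppk1* was higher in the *Eppk1*-/- library by 2.45 on the log2 scale (counting interval 2.13 to 2.80), from 100.4 CPM in 51 wildtype to 551 CPM in 37 *Eppk1*-/- cells. The difference in direction was not tested, since each genotype is 1 library. The median wildtype cell held 0 CPM and the median *Eppk1*-/- cell 510 CPM, and after thinning to 2000 UMIs 12% (4.53 to 24.3) and 62.2% (44.8 to 77.5) of cells had an *Eppk1* UMI. Median depths were alike, at 18029 and 18191 UMIs. The wildtype level lay within the range of wildtype clusters of cell types that should lack the gene (37.1 to 132.6 CPM), and the part of background in it was not tested. Without cells in droplets shared by the libraries the value was 2.26 (1.92 to 2.62) in 43 and 32 cells, and no cell of the cluster was among those with the highest doublet scores. Few of its cells met the keratinocyte rule, so that they stand outside the values given along *Krt1* and *Krt10*.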

How the results depend on the processing

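Under the alternative settings no direction reversed, 50 values stayed within the counting interval of the value reported and 43 moved out of it. Log2 differences along *Krt1* and *Krt10*, along *Flg* and *Lor* and by depth are called the keratin, granular and depth gradients. Without an upper limit on UMIs the *Eppk1*-/- over wildtype ratio was -1.45 in all keratinocytes and -0.98 in the last stage, the wildtype keratin and granular gradients were 2.95 and 1.26, the *Eppk1*-/- ones 5.38 and 3.18, and the *Eppk1*-/- share of cells 24.1%. With a stricter keratinocyte rule the wildtype gradients were 2.85, 1.28 and 2.49 (depth), the *Eppk1*-/- granular gradient 3.87 and the wildtype share 78.3%. With *Krt1*, *Krt10*, *Flg* and *Lor* out of the total they were 2.95, 1.23, 2.61 and 3.79. As a mean per cell, the ratios were -2.60 and -0.54, the wildtype gradients 2.62, 1.56 and 2.60 and the *Eppk1*-/- ones 4.15 and 4.53. Without shared droplets the ratio in all keratinocytes was -2.06 and the depth gradients 2.51 and 4.97. Without the highest doublet scores the last-stage ratio was -0.26 and the *Eppk1*-/- granular gradient 3.78. After thinning to 2000 UMIs the ratios were -2.57 in all keratinocytes, -0.29 in the last and -3.93 in the first stage, and the gradients 2.59 and 1.499 in the wildtype and 4.36 and 4.58 in *Eppk1*-/- cells. Shares were 84.3% and 31.0% without thinning and 94.8% and 40.0% at 5000 UMIs. With groups cut by cell number in place of fixed edges the gradients were 2.59 and 0.95 (wildtype) and 4.68 and 2.996 (*Eppk1*-/-). On the granular axis 57.1% of wildtype and 61.9% of *Eppk1*-/- keratinocytes were tied, with no *Flg* or *Lor* UMI. The share could therefore not set groups of equal cell number there. The cause of these shifts was not tested. In every setting run, the *Eppk1*-/- gradients were larger than the wildtype ones. Of the 20 most correlated genes 15 to 20 stayed among the 20. No paired analysis was possible because each genotype is 1 library, and leaving out a replicate was not possible for the same reason. One mouse per genotype, an assay that gives no position along the transcript and 56 *Eppk1*-/- cells in the last stage limit the values.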
